A study of Mus musculus with 25 samples.

Results

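The bile acid synthesis and transport genes described here are 10 genes with known roles in hepatocytes, chosen by symbol through the annotation of the array platform. They are the transporters Abcb11, Abcb4 and Slc10a1, the conjugating enzymes Slc27a5 and Baat, the synthesis enzymes Cyp7a1, Cyp8b1 and Cyp27a1, and the nuclear receptors Nr1h4 and Nr0b2. Each was represented by 1 probe set, and all 10 passed the filter on dim genes, so they are 10 of the 15951 genes tested. Total RNA of frozen mouse liver of strain FVB;129 was measured on 25 one-colour Affymetrix arrays, and the values are log2 signals from RMA, a method that corrects the background, normalizes the arrays and summarises each probe set. Per the series text, the albumin promoter drove the Cre recombinase and loxP sites lay in the Rb gene, the p53 gene or both. That promoter is known to act in hepatocytes, and which cells of these livers lost the genes was not tested. The labels give the p53 status and the Rb status of each liver as KO or WT, and what the WT livers carried is not given in the sources used here. The treated groups, which had received diethylnitrosamine (DEN), were DKO (p53 KO and Rb KO, 5 arrays), p53KO (p53 KO and Rb WT, 5 arrays), RbKO (p53 WT and Rb KO, 4 arrays) and WT (both WT, 5 arrays). The untreated groups were DKO (3 arrays) and WT (3 arrays). DEN is activated by hepatocyte enzymes to a compound that alkylates DNA, and it causes liver tumours. Pups of 14 days received 20 mg/kg of it into the peritoneum, and 24 h passed until collection per the series text. The untreated livers have the treatment label none, but saline is what the series text names for them.

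Bile acids are made from cholesterol in hepatocytes, joined to taurine or glycine, pumped into the bile canaliculus and taken up again from portal blood. The classical route of synthesis opens with Cyp7a1, and an alternative route opens with Cyp27a1. Bile acids bind the nuclear receptor FXR, the product of Nr1h4, which induces the export pump and the repressor SHP, the product of Nr0b2, and SHP lowers the expression of Cyp7a1 and Cyp8b1.

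By their array names the 25 arrays fall into 3 sets, and the set was a term of the fit. Set 2 held 1 DEN RbKO, 2 DEN WT and 1 untreated WT array and stood apart on the first principal component, which carried 25.8% of the variance (41.1 to 48.7, against -19.2 to 9.61 for the other arrays). Set 3 held 2 DEN DKO and 3 DEN p53KO arrays, and set 1 the other 16 arrays and all groups. Rb1, a targeted gene, ranged between 4.76 and 6.28 over the 25 arrays and was called in 0 of 11 comparisons by limma, with 2 at an unadjusted p under 0.05, so it does not check the labels here. The p53 gene itself was not analysed here. The labels do not give the sexes. Xist, which is made in female cells, was above 9 on 2 of 5 DEN DKO, 2 of 5 DEN p53KO, 2 of 4 DEN RbKO, 0 of 5 DEN WT, 0 of 3 untreated DKO and 2 of 3 untreated WT arrays. Nothing in the labels ties each replicate to an animal of its own, so the p-values here cover only the spread among these 25 arrays, which may be technical.

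Promoter windows of RefSeq (GRCm38.p6, 250 bases before to 50 bases after the transcription start) were at hand for 7 of the 10 genes, in 8 windows. The windows of 3 genes are printed because Abcb11 and Slc10a1 were called after DEN in WT livers, and Nr0b2 had the largest fall after DEN in DKO livers (-1.32). Capitals mark matches to the motifs reported here, searched on both strands, and all other bases are in lower case. The windows are chr2:69342567-69342866 (minus strand) for Abcb11, chr12:80968030-80968329 (minus strand, the second of 2 windows) for Slc10a1 and chr4:133553126-133553425 (plus strand) for Nr0b2.
Abcb11: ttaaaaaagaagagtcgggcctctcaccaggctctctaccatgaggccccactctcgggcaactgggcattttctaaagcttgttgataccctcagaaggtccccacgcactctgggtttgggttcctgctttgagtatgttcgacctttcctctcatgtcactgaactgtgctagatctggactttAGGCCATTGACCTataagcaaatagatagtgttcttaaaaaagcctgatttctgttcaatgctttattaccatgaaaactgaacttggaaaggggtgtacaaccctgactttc
Slc10a1: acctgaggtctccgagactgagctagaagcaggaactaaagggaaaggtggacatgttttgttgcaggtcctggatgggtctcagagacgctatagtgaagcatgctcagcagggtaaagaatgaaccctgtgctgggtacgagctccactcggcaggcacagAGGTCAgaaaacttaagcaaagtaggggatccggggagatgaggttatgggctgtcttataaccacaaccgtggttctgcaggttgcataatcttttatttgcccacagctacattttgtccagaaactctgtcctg
Nr0b2: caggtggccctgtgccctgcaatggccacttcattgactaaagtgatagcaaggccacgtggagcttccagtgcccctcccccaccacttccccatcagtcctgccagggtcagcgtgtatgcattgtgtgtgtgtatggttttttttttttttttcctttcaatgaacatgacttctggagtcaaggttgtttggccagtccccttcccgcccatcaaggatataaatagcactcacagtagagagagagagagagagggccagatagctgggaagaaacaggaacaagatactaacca

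The motifs reported here are the nuclear receptor core motif AGGTCA, its extended form TCAAGGTCA, the inverted repeat (AGGTCA, 1 free base, TGACCT), and the direct repeat (AGGTCA, 1 free base, AGGTCA), each repeat with up to 1 mismatch. FXR with its partner RXR is known to bind inverted repeats of this kind. The Abcb11 window held an inverted repeat with 1 mismatch that starts at position -63 from the transcription start, and the AGGTCA at -56, on the other strand, is part of it. Such a repeat was found in 27 of 32851 RefSeq promoter windows of the same length (0.0822%). The Slc10a1 window held an AGGTCA at -87, and the Nr1h4 window, which is not printed, held an AGGTCA at -214. AGGTCA occurred in 16.3% of all windows, the direct repeat in 0.554% and TCAAGGTCA, which contains AGGTCA, in 0.423%. The windows of Abcb4, Cyp8b1, Cyp27a1 and Nr0b2 and the other window of Slc10a1 held no match to these letters. Baat, Slc27a5 and Cyp7a1 had no window.

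In DKO livers the export pump Abcb11, the bile acid CoA ligase Slc27a5, the sterol hydroxylase Cyp8b1 and the receptor Nr0b2 fell after DEN, and the conjugating enzyme Baat rose. In WT livers Abcb11 and the uptake carrier Slc10a1 fell. Among the DEN groups, Slc27a5, Cyp8b1 and Cyp27a1 were lower in RbKO than in WT livers, and Cyp27a1 and Abcb4 were lower in DKO than in WT livers. A gene is called here at a Benjamini-Hochberg adjusted p under 0.05 from limma over all 15951 genes, and 8 of the 10 members were called in at least 1 of 11 comparisons. A gene called in 1 genotype and not in the other is not thereby shown to respond differently, and the difference between the responses was called for Baat alone over all arrays.

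Against untreated livers, 5 of 10 members were called after DEN in DKO livers, 1 higher and 4 lower, where 21.0% of all genes were called. Of all genes called there 78.6% were lower, and 90.9% when arrays were centred on their own medians. That centring shifted the median of all genes by -0.10. Centring on the median of the genes tested shifted it by 0.11, and the share of lower genes with it is not given here. The direction of the members is thus that of most called genes. The median difference of the members was -0.39, against -0.00 over all genes tested. In WT livers 2 of 10 members were called after DEN, both lower, where 3.99% of all genes were called and 48.0% of those were lower, with a median of -0.30 against 0.02 over all genes. The count in WT livers was 5 without set 2 (Abcb11, Slc10a1, Slc27a5, Cyp27a1 and Nr0b2), and also without untreated WT replicate 3 alone, and it was 1 without untreated WT replicate 1. Within set 1 alone these 5 genes were called in DKO livers too. The count in DKO livers was 3 without untreated DKO replicate 1. Without set 2, Slc10a1 (-0.36, adjusted p = 0.0337) and Cyp27a1 (-0.41, adjusted p = 0.00653) were called in DKO livers in addition to the 5. The difference between the 2 responses was called for 1 of 10 members, Baat, where 9.91% of all genes were called. That count was 2 without set 2 (Cyp27a1 was added, adjusted p = 0.0402) and 2 without untreated WT replicate 1 (Nr0b2 was added, adjusted p = 0.0190).

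Between genotypes, 2 of 10 members were lower in untreated DKO than in untreated WT livers, where 1.11% of all genes were called. Of those, 22.0% were lower, and 10.7% when arrays were centred on their own medians. That centring shifted the median of all genes by 0.07, and centring on the median of the genes tested shifted it by -0.05. No member was called there without untreated WT replicate 1 or without untreated DKO replicate 3, and 1 was called without untreated WT replicate 2 or untreated DKO replicate 2. After DEN, 2 of 10 members were lower in DKO than in WT livers, where 11.8% of all genes were called and 77.3% of those were lower, so the share of members is near the background. Without DEN WT replicate 1 it was 3 members, as Abcb4 was lost and Slc27a5 (-0.80) and Cyp8b1 (-0.48) were added. In RbKO livers 3 of 10 members were lower than in WT livers, where 11.4% of all genes were called, and 1 was called without DEN RbKO replicate 4. In p53KO against WT livers 0 of 10 members were called by limma, with 2 at an unadjusted p under 0.05, where 1.78% of all genes were called. Abcb4 was lower in DKO than in RbKO livers, 1 of 10 members where 1.03% of all genes were called. In DKO against p53KO livers 0 of 10 members were called by limma (2 at an unadjusted p under 0.05, 1.87% of all genes called), and without set 2 Cyp27a1 was called (adjusted p = 0.0377). In p53KO against RbKO livers 0 of 10 were called (3 at an unadjusted p under 0.05, 0.577% of all genes called), and without DEN RbKO replicate 4 Slc10a1 was called (adjusted p = 0.0476). For additivity, the difference of DKO from WT minus those of p53KO and of RbKO, 0 of 10 members were called (4 at an unadjusted p under 0.05, 0.426% of all genes called). Without DEN WT replicate 1, Cyp8b1 was called for additivity (adjusted p = 0.0435). The genotype comparisons after DEN share the DEN WT, DEN DKO or RbKO arrays with each other, and their values are given side by side.

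**Figure D1:**
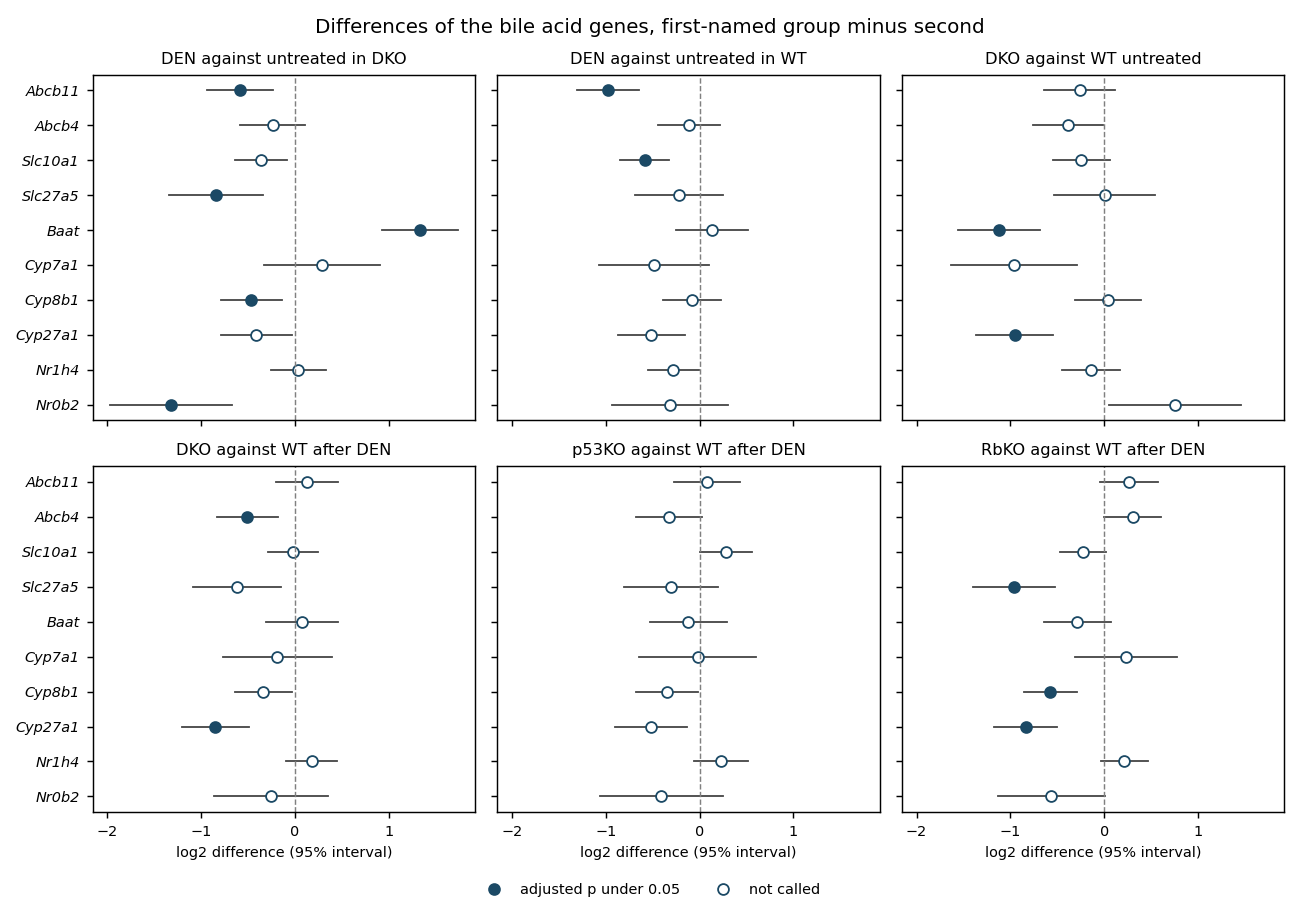
Log2 difference of each of the 10 genes, first-named group minus second, in 6 comparisons, with the 95% interval of limma as a bar. Filled points passed an adjusted p of 0.05 over all genes tested. Baat lies to the right of 0 in DKO livers after DEN (1.33) and to the left of 0 in untreated DKO against untreated WT livers (-1.12).

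The bile salt export pump Abcb11, which moves conjugated bile acids into the canaliculus, was lower after DEN in both genotypes. Abcb11 was at 9.28, 9.45, 9.29, 8.92 and 9.18 on the DEN DKO arrays, against 9.96, 9.80 and 9.71 on the untreated DKO arrays. It was at 8.92, 9.24, 9.31, 9.29 and 9.62 on the DEN WT arrays, against 10.28, 10.14 and 10.26 on the untreated WT arrays. In neither genotype did the DEN and untreated arrays overlap. The difference was -0.59 (SE 0.17, adjusted p = 0.0141) in DKO livers and -0.98 (SE 0.16, adjusted p = 0.000635) in WT livers, which is 0.665 and 0.507 of the untreated level. The 2 differences were not shown to differ, with a difference of 0.39 (95% interval -0.09 to 0.87, adjusted p = 0.333). Abcb11 fell by 1.06 within set 1 of the WT livers and differed by -0.80 within set 2, where 1 array was untreated. Without untreated DKO replicate 1 the difference in DKO livers was not called (adjusted p = 0.0727). The other DEN arrays were at 8.98, 9.07, 9.08, 9.12 and 9.59 in p53KO and 9.21, 9.18, 9.33 and 10.19 in RbKO livers. The RbKO array of set 2 was thus within the range of the untreated WT arrays, and no DEN genotype was called against DEN WT for Abcb11.

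The sodium-dependent carrier Slc10a1, which takes bile acids up from portal blood, was at 10.11, 9.90, 9.89, 10.30 and 10.59 on the DEN WT arrays. The untreated WT arrays were at 10.55, 10.51 and 11.05. DEN WT replicate 5 and the untreated arrays overlapped when the sets were put together, and within each set every DEN array lay below every untreated one. Slc10a1 fell by 0.59 in WT livers (SE 0.13, adjusted p = 0.00807), with -0.56 in set 1 and -0.60 in set 2, and without untreated WT replicate 1 the adjusted p was 0.0617. In DKO livers Slc10a1 was at 10.02, 9.81, 9.79, 9.45 and 9.80 after DEN, against 10.19, 10.35 and 10.21 untreated. These arrays did not overlap, but the difference of -0.36 (SE 0.14) was not called (adjusted p = 0.0588). It was called without DEN DKO replicate 5 (adjusted p = 0.0391) and within set 1 (-0.37, adjusted p = 0.0367). Slc10a1 was at 10.24, 10.17, 9.89, 9.88 and 9.93 in p53KO livers and at 9.28, 9.78, 9.73 and 10.55 in RbKO livers. The difference of p53KO from RbKO livers was 0.51 (SE 0.14, adjusted p = 0.100).

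The phospholipid floppase Abcb4, which puts phosphatidylcholine into bile and so shields the bile ducts from free bile acids, showed no called response to DEN. Abcb4 was at 7.25, 7.06, 7.43, 7.48 and 7.19 in DEN DKO livers, against 7.38, 7.31 and 7.26 in untreated DKO livers. It was at 7.65, 7.79, 7.52, 6.95 and 7.51 in DEN WT livers, against 7.77, 7.65 and 7.42 in untreated WT livers. The DEN and untreated arrays of Abcb4 overlapped in both genotypes. The RbKO arrays were at 7.83, 7.77, 7.88 and 7.82, all above every DEN DKO array. The Abcb4 level in DKO livers was 0.569 of that in RbKO livers (log2 difference -0.81, SE 0.16, adjusted p = 0.0117). The adjusted p was 0.0502 with the set as a random block, 0.0829 in a fit of these groups alone and 0.301 without a set term. In DKO against WT livers after DEN the difference was -0.51 (SE 0.16, adjusted p = 0.0346), and the arrays overlapped. It was -0.20 without a set term (adjusted p = 0.517) and -0.38 with the set as a random block (0.141), and the adjusted p was 0.218 in a fit of these groups alone and 0.0603 with Xist as a covariate. That call was also lost without any of 4 arrays: DEN WT replicate 2 (adjusted p = 0.103), replicate 1 (0.0760) or replicate 5 (0.0548), or DEN DKO replicate 2 (0.0694). The p53KO arrays split by set, with 6.94 and 7.08 in set 1 and 7.78, 8.03 and 8.01 in set 3. Within set 1 the difference of p53KO from WT livers was -0.64 (adjusted p = 0.00562), whereas over all arrays it was -0.33 (adjusted p = 0.340).

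**Figure D2:**
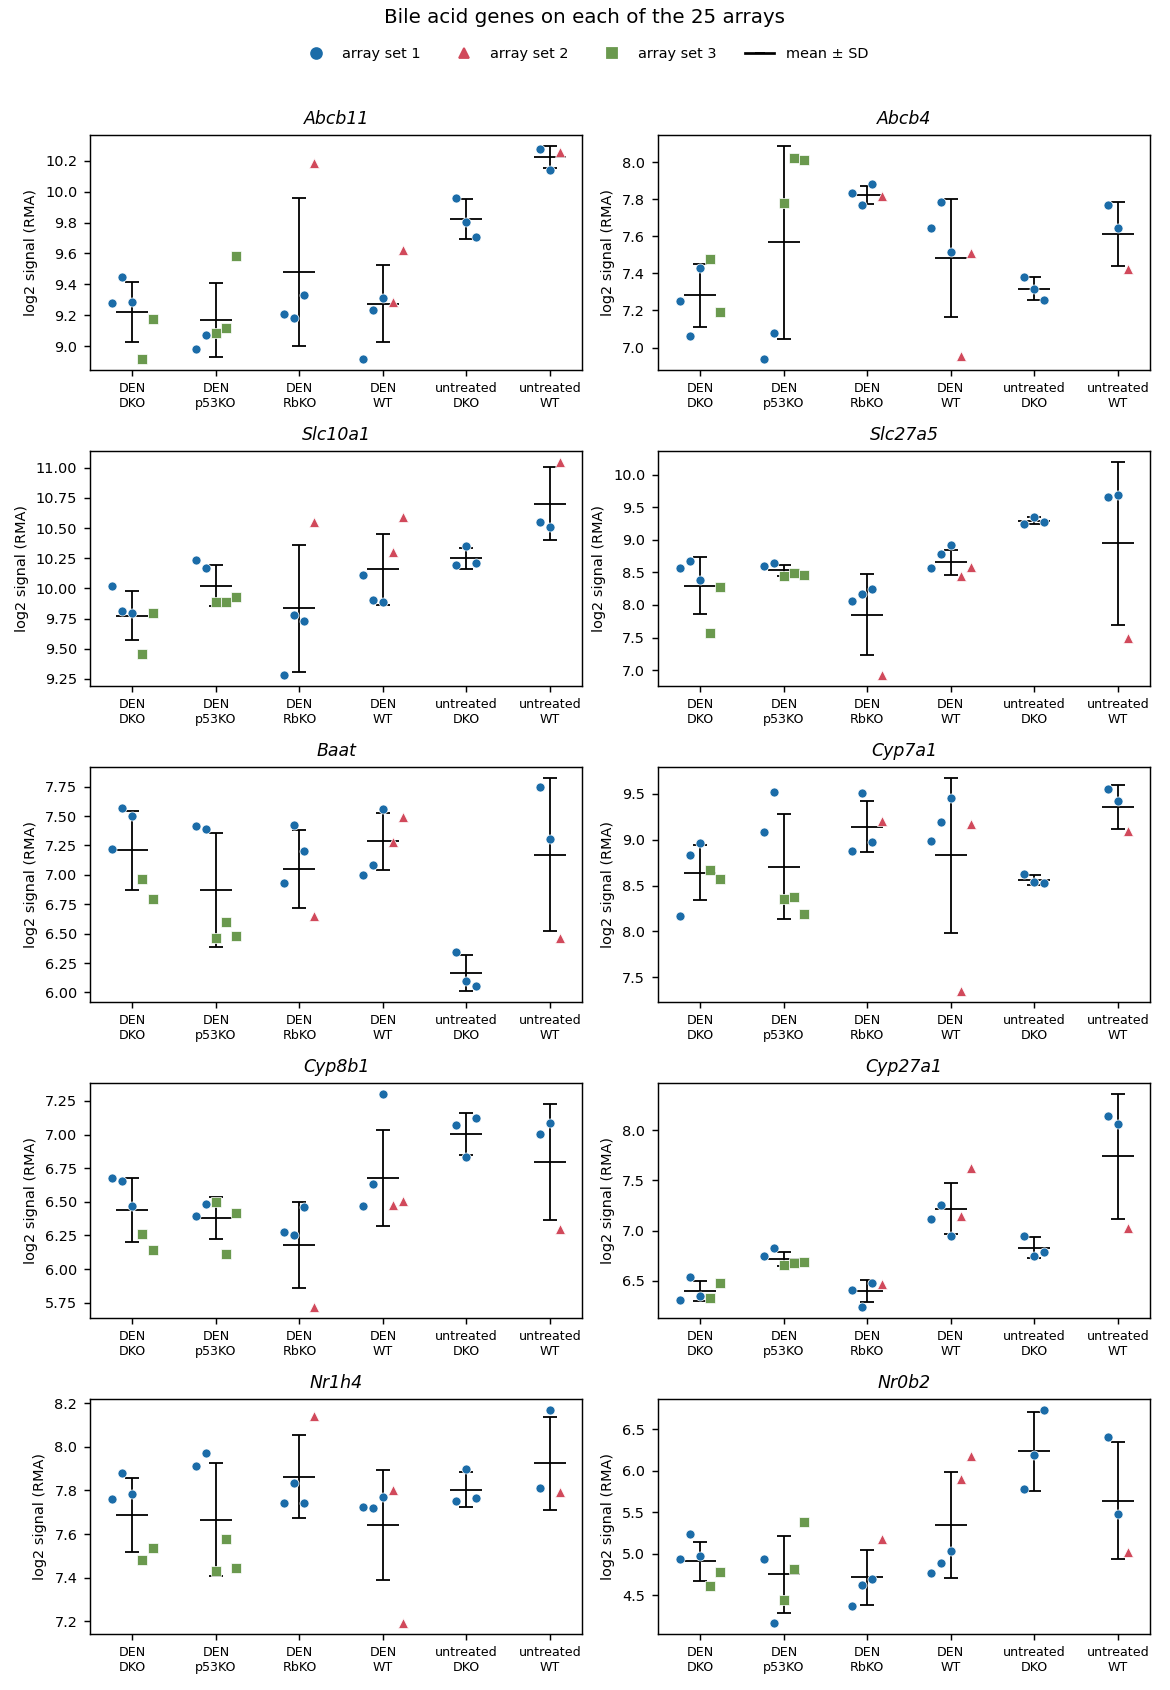
Log2 signal of the 10 genes on each of the 25 arrays, by group, with the mean and SD of each group as bars and the array set as the symbol. The Abcb11 points of the DEN DKO and DEN WT groups lie below those of their untreated groups, and the Baat points of the untreated DKO group lie between 6.06 and 6.34.

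Slc27a5 encodes the bile acid CoA ligase, which activates bile acids before they are joined to an amino acid. In DKO livers Slc27a5 was at 8.57, 8.67, 8.38, 7.56 and 8.28 after DEN, against 9.25, 9.36 and 9.27 untreated. The groups did not overlap, and the level after DEN was 0.557 of the untreated one (log2 difference -0.84, SE 0.24, adjusted p = 0.0136, and 0.0501 without untreated DKO replicate 2). In WT livers Slc27a5 was at 8.57, 8.78, 8.93, 8.44 and 8.59 after DEN, against 9.66, 9.69 and 7.50 untreated. The untreated array of set 2 lay below every DEN WT array, and both untreated arrays of set 1 lay above them. Over all arrays the difference in WT livers was -0.22 (SE 0.23, adjusted p = 0.706). Within set 1 Slc27a5 fell by 0.91 (adjusted p = 0.000129), and within set 2, with 1 untreated array, the difference was 1.01. Without untreated WT replicate 3 the difference was -0.76 (adjusted p = 0.0258). The difference between the responses of DKO and WT livers was -0.62 (95% interval -1.31 to 0.06, adjusted p = 0.263).

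After DEN, Slc27a5 was at 8.07, 8.17, 8.24 and 6.93 in RbKO livers, below every DEN WT array. The level in RbKO livers was 0.514 of that in WT livers (log2 difference -0.96, SE 0.21, adjusted p = 0.00577). It was -0.60 within set 1 (adjusted p = 0.0101), and -1.59 within set 2, where RbKO is 1 array. Without DEN RbKO replicate 4, the lowest array, the difference was -0.87 and the adjusted p 0.0669. The p53KO arrays were at 8.60, 8.65, 8.45, 8.49 and 8.47, the narrowest spread of Slc27a5 among the 4 DEN groups (SD 0.0874, n = 5), and were not called against WT (-0.30, SE 0.24, adjusted p = 0.575).

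Baat encodes the enzyme that transfers the amino acid onto the activated bile acid, the step after Slc27a5. It was the 1 member that rose after DEN. Baat was at 7.22, 7.57, 7.50, 6.96 and 6.79 in DEN DKO livers, against 6.34, 6.10 and 6.06 in untreated DKO livers. Every DEN array lay above every untreated one, and the level after DEN was 2.51 times the untreated one (log2 difference 1.33, SE 0.20, adjusted p = 3.52e-05). In WT livers Baat was at 7.00, 7.09, 7.56, 7.28 and 7.49 after DEN, against 7.75, 7.31 and 6.46 untreated, and the arrays overlapped (0.13, SE 0.19, adjusted p = 0.793). The difference between the responses was 1.20 (SE 0.27, adjusted p = 0.00615), it was 1.57 within set 1 (adjusted p = 0.00158), and its largest adjusted p without any 1 array was 0.0251. Without a term for the set it was 0.93 and not called (adjusted p = 0.156). The untreated genotypes differed the other way: Baat in untreated DKO livers was at 0.460 of the untreated WT level (log2 difference -1.12, SE 0.21, adjusted p = 0.00686), and the arrays did not overlap. That call was lost without untreated WT replicate 1 (adjusted p = 0.125) or untreated DKO replicate 3 (0.0585). After DEN the p53KO arrays split by set, with 7.42 and 7.39 in set 1 and 6.47, 6.60 and 6.48 in set 3. The RbKO arrays were at 6.93, 7.42, 7.20 and 6.65. No DEN genotype was called against WT for Baat. The 95% interval of the difference from WT was -0.31 to 0.45 in DKO, -0.53 to 0.29 in p53KO and -0.64 to 0.07 in RbKO livers. With Xist as a covariate the difference between the responses was 1.09 (adjusted p = 0.0444) and that between the untreated genotypes -1.05 (adjusted p = 0.0382). The untreated DKO arrays enter both the response in DKO livers and the untreated comparison, so these 2 results are not independent.

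Neutrophil marker genes moved with the untreated DKO arrays too. The mean log2 signal of the 7 markers lay between 6.35 and 7.10 on these 3 arrays, against 4.77 to 4.94 on the untreated WT arrays, and it lay between 4.89 and 5.97 on the DEN DKO arrays. Of the 7 markers, 3 were higher in untreated DKO than in untreated WT livers (Camp, Ngp and Mpo), and 5 fell after DEN in DKO livers. Of all genes, 1.11% were called between the untreated genotypes. After DEN in DKO livers 21.0% were called, and 78.6% of those were lower. Without set 2 the counts of neutrophil markers were 6 higher and 6 fallen. The 9 hepatocyte markers tested had a mean between 11.4 and 11.6 on the DEN DKO and untreated DKO arrays. On the untreated WT arrays it was higher, between 11.7 and 11.9. Over all arrays 0 of the 9 were called between the untreated genotypes, with a median difference of -0.17. Lower in DKO were 1 without set 2 and 2 within set 1. The part of other cell types in the Baat and Cyp27a1 values of these arrays was not tested. In whole liver, fewer cells of a type and less RNA per cell cannot be told apart.

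Cyp7a1, the rate-limiting enzyme of the classical route, was called in 0 of 11 comparisons by limma. Cyp7a1 was at 8.17, 8.83, 8.96, 8.67 and 8.57 in DEN DKO livers, against 8.63, 8.53 and 8.52 in untreated DKO livers. It was at 8.99, 9.20, 9.45, 7.35 and 9.17 in DEN WT livers, against 9.55, 9.42 and 9.09 in untreated WT livers. The DEN and untreated arrays overlapped in both genotypes. The 95% interval of the DEN response was -0.33 to 0.90 in DKO livers and -1.07 to 0.10 in WT livers. In the untreated livers the DKO arrays lay below all WT arrays. The level was 0.512 of that in WT livers (log2 difference -0.96, SE 0.33), and it was not called (adjusted p = 0.174). It was called within set 1 (-0.92, adjusted p = 0.0151). The p53KO arrays were at 9.08 and 9.52 in set 1 and 8.35, 8.38 and 8.19 in set 3, and the RbKO arrays at 8.88, 9.51, 8.98 and 9.20.

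Cyp8b1, the sterol 12-alpha-hydroxylase that sets the share of cholic acid, fell after DEN in DKO livers. Cyp8b1 was at 6.68, 6.66, 6.47, 6.26 and 6.14 in DEN DKO livers, against 7.07, 6.83 and 7.12 in untreated DKO livers. The arrays did not overlap (log2 difference -0.47, SE 0.16, adjusted p = 0.0369). The call was lost without any of 4 arrays: untreated DKO replicate 3 (adjusted p = 0.140), untreated DKO replicate 1 (0.113), DEN DKO replicate 3 (0.0790) or DEN DKO replicate 5 (0.0519). It was also lost within set 1 alone (-0.41, adjusted p = 0.0739), with Xist as a covariate (0.0683) and without a set term (0.0536). In WT livers Cyp8b1 was at 6.47, 6.63, 7.30, 6.47 and 6.50 after DEN, against 7.00, 7.08 and 6.30 untreated, with overlap (-0.08, SE 0.15, adjusted p = 0.849). The RbKO arrays, at 6.28, 6.26, 6.46 and 5.72, lay below all DEN WT arrays. Cyp8b1 in RbKO livers was at 0.671 of the DEN WT level (log2 difference -0.57, SE 0.14, adjusted p = 0.00956). It was -0.47 within set 1 (adjusted p = 0.115), and -0.77 within set 2, where RbKO is 1 array, and the adjusted p was 0.0857 without DEN RbKO replicate 4. The p53KO arrays were at 6.39, 6.49, 6.50, 6.11 and 6.41 (-0.35 against WT, SE 0.16, adjusted p = 0.266).

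Cyp27a1, the mitochondrial sterol 27-hydroxylase of the alternative route, was set against the WT group of the same treatment in 4 knockout groups, and it was called lower in 3 of them. In untreated livers Cyp27a1 was at 6.95, 6.75 and 6.79 in DKO, against 8.14, 8.06 and 7.02 in WT. The level in DKO livers was 0.516 of that in WT livers (log2 difference -0.95, SE 0.20, adjusted p = 0.0141) and it was -1.27 within set 1 (adjusted p = 8.38e-06). That call was lost without any of 4 arrays: untreated WT replicate 1 (adjusted p = 0.180), untreated WT replicate 2 (0.147), untreated DKO replicate 3 (0.0789) or untreated DKO replicate 2 (0.0711). After DEN, Cyp27a1 was at 6.30, 6.54, 6.34, 6.33 and 6.48 in DKO livers, against 7.12, 7.26, 6.95, 7.14 and 7.63 in WT livers. In RbKO livers it was at 6.41, 6.24, 6.48 and 6.47, and in p53KO livers at 6.74, 6.83, 6.66, 6.68 and 6.69. No array of a DEN knockout group reached the lowest DEN WT array. The difference from WT was -0.85 in DKO (SE 0.17, adjusted p = 0.00231), -0.84 in RbKO (SE 0.16, adjusted p = 0.00262) and -0.52 in p53KO livers (SE 0.19, adjusted p = 0.141). Without any 1 array the adjusted p was at most 0.00971 in DKO and 0.0216 in RbKO livers. Within set 1 the difference was -0.71 in DKO (adjusted p = 0.000826) and -0.73 in RbKO livers (0.00630).

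The order of the group means of Cyp27a1 was untreated WT (7.74 ± 0.62, SD, n = 3), DEN WT (7.22 ± 0.25, n = 5), untreated DKO (6.83 ± 0.11, n = 3), DEN p53KO (6.72 ± 0.07, n = 5), DEN RbKO (6.40 ± 0.11, n = 4) and DEN DKO (6.40 ± 0.10, n = 5). The 2 WT groups lay within their spread, and so did DEN DKO and DEN RbKO. These means put the array sets together. The wide spread of untreated WT comes with its set 2 array at 7.02, against 8.14 and 8.06 in set 1. Untreated DKO differs from DEN WT and from DEN p53KO in both genotype and treatment, and it was not compared with them. DEN DKO and DEN RbKO differed by -0.01 (95% interval -0.37 to 0.35, adjusted p = 0.986). The p53KO and RbKO arrays did not overlap, but their difference of 0.32 (SE 0.19) was not called (adjusted p = 0.555). Within DKO livers the DEN arrays lay below the untreated ones, with a difference of -0.41 (SE 0.18, adjusted p = 0.118) over all arrays and -0.44 within set 1 (adjusted p = 0.00763). In WT livers the difference after DEN was -0.52 (SE 0.17, adjusted p = 0.0995), and Cyp27a1 fell by 0.99 within set 1 (adjusted p = 6.29e-05). It was called without untreated WT replicate 3 (-0.97, adjusted p = 0.000149) and without DEN WT replicate 5 (-0.65, adjusted p = 0.0200).

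Nr1h4, the bile acid receptor FXR, was called in 0 of 11 comparisons by limma, like Cyp7a1. Nr1h4 was at 7.76, 7.88, 7.78, 7.48 and 7.53 in DEN DKO livers, against 7.75, 7.90 and 7.76 in untreated DKO livers. It was at 7.73, 7.72, 7.77, 7.80 and 7.19 in DEN WT livers, against 7.81, 8.17 and 7.79 in untreated WT livers. The 95% interval of the DEN response was -0.25 to 0.32 in DKO and -0.55 to -0.01 in WT livers, where the unadjusted p was 0.0447 and the adjusted p 0.279. Nr1h4 was at 7.91, 7.97, 7.43, 7.58 and 7.44 in p53KO livers and at 7.74, 7.83, 7.74 and 8.14 in RbKO livers. The lower values of the p53KO and DKO groups were those of set 3.

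Nr0b2, which encodes the corepressor SHP and is a known FXR target, fell after DEN in DKO livers. Nr0b2 was at 4.93, 5.23, 4.98, 4.61 and 4.78 in DEN DKO livers, against 5.78, 6.19 and 6.73 in untreated DKO livers. The arrays did not overlap, and the level after DEN was 0.400 of the untreated one (log2 difference -1.32, SE 0.32, adjusted p = 0.00359, at most 0.0381 without any 1 array). Untreated DKO and untreated WT arrays of Nr0b2 overlapped (0.75, SE 0.34, adjusted p = 0.370). In WT livers it was at 4.76, 4.89, 5.03, 5.89 and 6.17 after DEN, against 6.40, 5.48 and 5.02 untreated. The 2 DEN arrays of set 2 were the highest DEN WT arrays, and the untreated array of set 2 was the lowest untreated one. Over all arrays the difference in WT livers was -0.32 (SE 0.30, adjusted p = 0.673). Within set 1 Nr0b2 fell by 1.05 (adjusted p = 0.0160), and within set 2, with 1 untreated array, the difference was 1.01. Without untreated WT replicate 3 it was -0.97 (adjusted p = 0.0457). The difference between the responses was -1.01 over all arrays (SE 0.43, adjusted p = 0.149) and -0.14 within set 1 (adjusted p = 0.871). The p53KO arrays were at 4.94, 4.17, 4.45, 4.82 and 5.39 and the RbKO arrays at 4.38, 4.62, 4.70 and 5.17, and no DEN genotype was called against WT for Nr0b2.

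The DEN response in WT livers thus had opposite signs in the 2 array sets for Slc27a5, Nr0b2, Baat, Cyp27a1 and Cyp8b1, and the same sign for Abcb11, Slc10a1, Abcb4, Cyp7a1 and Nr1h4. Set 2 has 1 untreated WT array, so each of its differences rests on that array. For Baat the difference was -0.31 in set 1 and 0.92 in set 2, and for Cyp8b1 it was -0.24 and 0.19. The part of the array set in these differences was not tested beyond these fits.

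**Figure D3:**
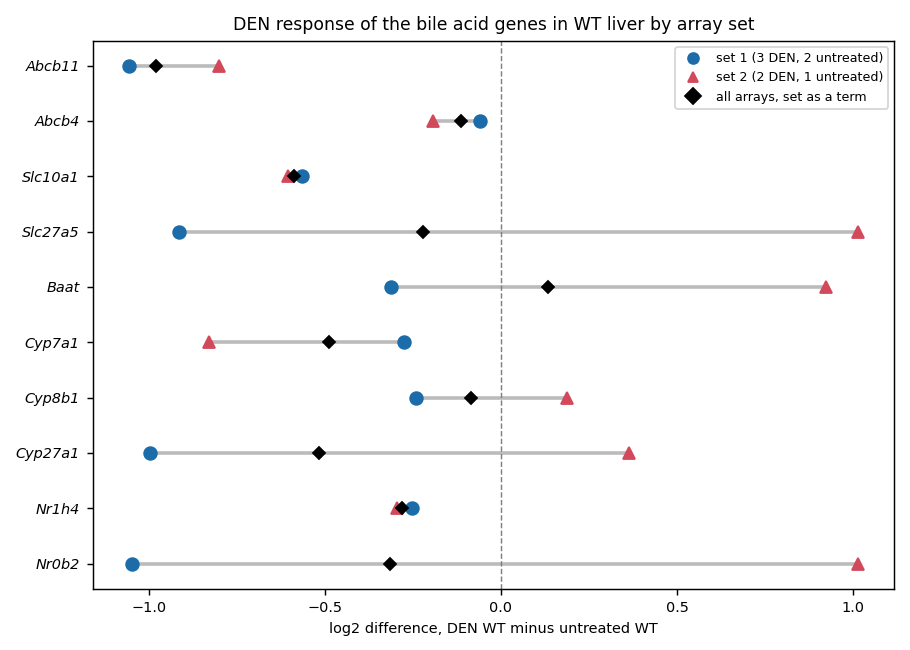
Log2 difference of each of the 10 genes in DEN WT minus untreated WT livers within set 1 (circles, 3 DEN and 2 untreated arrays), within set 2 (triangles, 2 DEN arrays and 1 untreated array) and over all arrays with the set as a term (diamonds). Abcb11 and Slc10a1 have like values in both sets, whereas Slc27a5 and Nr0b2 lie near -1 in set 1 and at 1.01 in set 2.

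The other genes of the pathway were taken from 3 lists. Of 17 regulators, 11 fell after DEN in DKO livers and 0 rose, with a median of -0.64, where 21.0% of all genes were called and the median of all was -0.00. Ppara, the fatty acid receptor, was at 7.03, 7.35, 6.99, 6.67 and 7.23 in DEN DKO livers, against 8.35, 8.32 and 8.55 in untreated DKO livers (log2 difference -1.46, SE 0.22, adjusted p = 3.64e-05). Hnf4a, a hepatocyte transcription factor that drives several bile acid genes, was at 7.32, 7.35, 7.14, 7.01 and 6.96, against 8.72, 8.60 and 8.46 (-1.37, SE 0.21, adjusted p = 6.10e-05). Klb, the coreceptor through which the ileal hormone FGF15 acts on Cyp7a1, differed by -0.78 (SE 0.14, adjusted p = 0.000211). The DEN and untreated DKO arrays of these 3 genes did not overlap. The 3 were picked by the lowest p in this same comparison, so the lack of overlap is no added support. The share of all genes without overlap is not given here. In WT livers 1 of 17 regulators fell after DEN, Hnf4a (-0.76, SE 0.20, adjusted p = 0.0309), where 3.99% of all genes were called, and 5 fell without set 2. Hnf4a was at 7.68, 7.77, 7.57, 8.12 and 8.55 in DEN WT livers, against 8.79, 9.29 and 8.01 in untreated WT livers. Within set 1 the difference was -1.33 in DKO and -1.36 in WT livers, and in WT livers of set 2, where 1 array was untreated, it was 0.33. The difference between the responses was called for 2 of 17 regulators over all arrays, where 9.91% of all genes were called. The share of regulators is thus near the background. They were Nr1h3, the oxysterol receptor LXR alpha (-1.11), and Prox1, a corepressor of Cyp7a1 (-0.66). Within set 1 the difference between the responses was -0.39 for Nr1h3 (adjusted p = 0.352) and -0.44 for Prox1 (0.141). Without set 2 it was called for 0 of 17. Against DEN WT livers, 5 regulators were lower in DKO, 5 in RbKO and 1 in p53KO livers (Rxra, the partner of FXR), where 11.8%, 11.4% and 1.78% of all genes were called, and 0 of 17 were called between the untreated genotypes. Without set 2 the count was 4 in DKO, 0 in RbKO and 0 in p53KO livers. The difference of Rxra in p53KO against WT livers was -0.56 without set 2 (adjusted p = 0.0864) and -0.83 within set 1 (adjusted p = 0.000389). In DKO against WT the first by p were Nr1i3 (-1.29), Nr1i2 (-0.76) and Nr1h3 (-0.81), and in RbKO against WT they were Nr1i2 (-0.66), Nr1h3 (-0.87) and Nr1i3 (-0.79). Nr1i3 and Nr1i2 encode the xenobiotic receptors CAR and PXR. These comparisons share the DEN WT arrays.

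**Figure D4:**
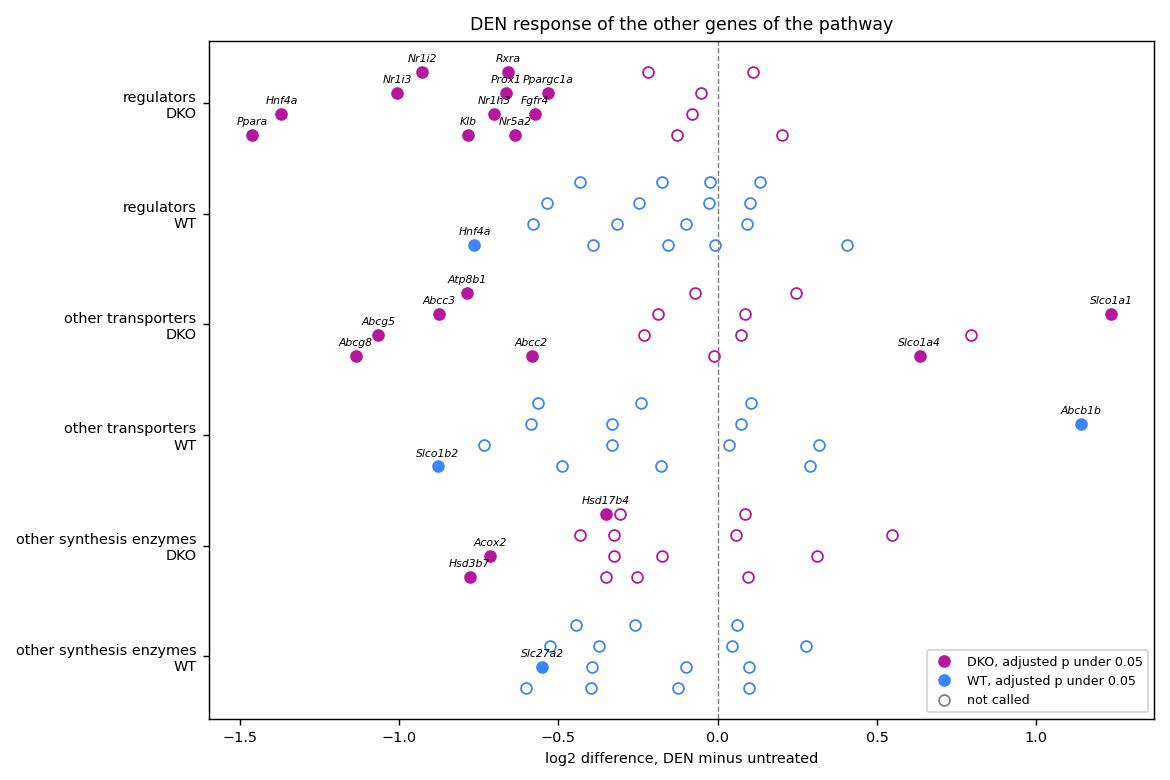
Log2 difference, DEN minus untreated, of the other genes of the pathway in DKO and in WT livers, in 3 lists, with called genes filled and named. The 11 called regulators of DKO livers lie between -1.46 and -0.53, and in WT livers 1 regulator, Hnf4a, is filled.

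Of 15 other transporters tested, 2 rose and 5 fell after DEN in DKO livers, and 1 rose and 1 fell in WT livers, where 21.0% and 3.99% of all genes were called. Their median difference was -0.07 in DKO livers and -0.24 in WT livers. In DKO livers the first by p were Abcg5 (-1.07, SE 0.17, adjusted p = 5.60e-05) and Abcg8 (-1.13, SE 0.22, adjusted p = 0.000431), both subunits of the canalicular sterol exporter, and Abcc3 (-0.88, SE 0.20, adjusted p = 0.00264), a basolateral exporter. In WT livers Abcb1b, a multidrug exporter, rose (1.14, SE 0.29, adjusted p = 0.0246), and Slco1b2, a sodium-independent uptake carrier, fell (-0.88, SE 0.22, adjusted p = 0.0228). For Slco1b2 it was -0.44 within set 1 (adjusted p = 0.0716) and -1.61 within set 2, where 1 array was untreated. Slco1a1, another organic anion uptake carrier, behaved like Baat in that it was low in untreated DKO livers. It was at 6.48, 7.00, 7.44, 6.72 and 6.42 in DEN DKO livers, against 5.73, 5.50 and 5.92 in untreated DKO livers. In WT livers Slco1a1 was at 6.26, 7.55, 7.39, 6.26 and 6.91 after DEN, against 7.88, 8.21 and 6.81 untreated. It was lower in untreated DKO than in untreated WT livers (-2.06, SE 0.36, adjusted p = 0.00396), and the responses to DEN differed by 1.97 (SE 0.46, adjusted p = 0.00752). Slco1a1 was also lower in p53KO than in WT livers after DEN (-1.63, SE 0.34, adjusted p = 0.0158). The levels of Slco1a1 are known to differ between the sexes in adult mouse liver, and arrays with Xist above 9 were 0 of 3 in untreated DKO and 2 of 3 in untreated WT livers. Untreated WT replicate 2, the array of that group with low Xist (4.15), had its highest Slco1a1 (8.21). The part of sex in the Slco1a1 values was not tested beyond the fit with Xist. With Xist as a covariate the difference between the untreated genotypes was -1.84 (adjusted p = 0.0308), and the difference between the responses was 1.65 and not called (adjusted p = 0.0661). In RbKO against WT livers after DEN, 3 of the 15 transporters were higher and 2 lower, where 11.4% of all genes were called. The first by p were Slco1b2 (0.76), Abcc3 (-0.61) and Abcg2 (0.45). Without set 2 none of the 15 was called there by limma, and the differences within set 1 were 0.32 for Slco1b2, -0.36 for Abcc3 and 0.23 for Abcg2.

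Of 15 other synthesis enzymes tested, 3 fell after DEN in DKO livers and 0 rose, with a median of -0.31. That is 3 of 15 where 21.0% of all genes were called, a share near the background. They were Acox2 and Hsd17b4, of the peroxisomal shortening of the side chain, and Hsd3b7, which acts on the sterol ring. In WT livers 1 of 15 fell, where 3.99% of all genes were called, and the median was -0.26. It was Slc27a2 (-0.55, SE 0.14, adjusted p = 0.0207), a CoA ligase. Acox2 was at 7.85, 8.07, 7.82, 7.59 and 7.19 in DEN DKO livers and at 8.05, 7.99, 7.98 and 7.96 in DEN RbKO livers, against 8.73, 8.68, 8.40, 9.28 and 8.96 in DEN WT livers. It was lower than in WT livers after DEN in DKO (-0.90, SE 0.14, adjusted p = 0.000311) and in RbKO livers (-0.79, SE 0.14, adjusted p = 0.00144), and no array overlapped the DEN WT group, as for Cyp27a1. Within set 1 it was -0.69 in DKO and -0.59 in RbKO livers, both called. In RbKO livers Hsd3b7 was lower too (-0.56, SE 0.17, adjusted p = 0.0306), with -0.37 within set 1 (adjusted p = 0.252). The difference between the responses was called for 3 of 15 enzymes, where 9.91% of all genes were called. They were Acox2 (-0.76), Cyp2c70 (0.76), which makes muricholic acids in mice, and Cyp39a1 (1.15). Within set 1 the difference between the responses was -0.40 for Acox2 (adjusted p = 0.170), 0.43 for Cyp2c70 (0.121) and 1.25 for Cyp39a1 (0.0148). Ch25h and Slc10a2 were too dim to be tested.

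Marker genes of the liver's cell types give the context of these values. Of 9 hepatocyte markers, 2 rose and 2 fell after DEN in DKO livers, and 0 were called after DEN in WT livers (2 fell without set 2) or between genotypes. Of 12 acute phase genes, which hepatocytes make under inflammation, 6 rose and 3 fell after DEN in DKO livers and 6 rose in WT livers, where 21.0% and 3.99% of all genes were called. Their mean log2 signal lay between 9.72 and 9.92 on the DEN DKO arrays, and between 9.37 and 10.1 on the DEN WT arrays of set 1, but was as low as 7.75 on the DEN WT arrays and 7.74 on the DEN RbKO array of set 2. It lay between 8.06 and 8.72 on the untreated DKO arrays and between 7.57 and 8.37 on the untreated WT arrays. Of 7 endothelial markers, 6 fell after DEN in DKO livers, and 5 were lower in DKO than in WT livers after DEN (3 without set 2). Of all genes, 21.0% and 11.8% were called in these comparisons. The endothelial mean log2 signal lay between 5.88 and 6.13 on the DEN DKO arrays, against 6.36 to 6.73 on the DEN WT arrays. Stellate cell markers fell after DEN in DKO livers in 4 of 7, erythroid markers in 2 of 3 and lymphocyte markers in 2 of 4. Macrophage markers fell there in 2 of 8, a share near the 21.0% of all genes. None of these markers rose over all arrays. Without set 2, 1 macrophage marker rose and 2 fell, and within set 1, 1 rose and 1 fell. In WT livers 1 of 7 endothelial markers fell after DEN over all arrays, and 4 of 7 within set 1. Over all arrays 1 of 7 stellate, 0 of 3 erythroid and 0 of 4 lymphocyte markers fell in WT livers, where 3.99% of all genes were called. Of 4 cholangiocyte markers tested, 0 were called in any comparison, and the mean of the 6 with a probe set was at most 4.16 on any array. The part of these cells in the values of the bile acid genes was not tested.

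Across the 25 arrays, after the mean of each array set was subtracted, the 10 members did not move as 1 block. Over their 45 pairs the median Pearson correlation was 0.19, and 26 pairs were above 0. The highest values joined Slc27a5 to Cyp8b1 (r = 0.79), to Cyp27a1 (r = 0.78) and to Nr0b2 (r = 0.76), and Abcb11 to Slc10a1 (r = 0.63). The lowest value was that of Baat with Abcb11 (r = -0.36). The arrays share groups, treatment and amplification, so these correlations are descriptions over 25 points. The sets hold the groups unevenly, so subtracting their means also takes out part of the differences between groups. The median correlation of other gene pairs is not given here. Among all other genes tested that are in no list, the one most like Abcb11 was Itpr2 (r = 0.93), a calcium channel, followed by Diaph2 (0.91) and Dcaf6 (0.90). Slc27a5 was most like Fah (0.95), an enzyme of tyrosine breakdown, Abat (0.94) and Sema4g (0.93). Cyp27a1 was most like Tango2 (0.90), Gpld1 (0.89) and Aldh1l1 (0.87), and Nr0b2 most like Slc25a23 (0.89), Vkorc1 (0.89) and Pink1 (0.88). The closest genes were Phyh for Slc10a1 (0.86), Vps13c for Abcb4 (0.86), Fetub for Cyp8b1 (0.84), Kcnj13 for Cyp7a1 (0.78) and Ndufaf6 for Baat (0.75). For Nr1h4 it was Eif1a, with r = 0.82 but a rank correlation of 0.53.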

How the data were processed

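Per the labels' protocols, the WT-Ovation Pico kit amplified the RNA, which carried biotin on 1-colour arrays. The authors deposited log2 signals, made by RMA in Affymetrix Expression Console 1.1, per the submitters' processing notes. RMA gives arrays a common distribution, so a change of most genes would be hidden. Whether all arrays were normalized in 1 run, and the genome build, are not given in the sources used here.

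Of 35555 probe sets, 21789 had 1 gene symbol. The probe set with the highest mean stood for a gene, and 3987 of 19938 genes under the 20th percentile (3.33 log2) were left out as dim. The model, fitted in R 4.3.3 with limma 3.58.1 (lmFit, eBayes) over 25 arrays, had group means and the array set, two-sided, and p-values were adjusted by Benjamini-Hochberg over 15951 genes in each of 11 comparisons. SE is that of limma. The precision is limited by the number of arrays. The calculation was tested on simulated data. The alternatives were 13 planned settings, 25 fits without 1 array each, and 2 added after seeing the data, Xist as a covariate and arrays centred on the median of the genes tested. The fits of the lists within set 1, within set 2 and without set 2 were also added after seeing the data. The text names, from each pathway list, up to 3 called genes in order of p, and for likeness the 3 genes with the highest correlation. The members and lists were chosen with earlier results of these data known. Sequences are from RefSeq (GRCm38.p6).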

Additional observations from a re-analysis of the deposited data

Results flagged for a closer look

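In 40 groups of 4 or 5 arrays, 7 single values lay far from the rest of their group, where chance alone gives about 1 in 20 for independent, like arrays. That rate does not hold strictly here, since each group mixes array sets and the genes share arrays. Abcb11 was at 9.586 on DEN p53KO replicate 5, where the other arrays of the group lay between 8.98 and 9.12, and at 10.189 on DEN RbKO replicate 4, where the others lay between 9.18 and 9.33. On that same array of set 2, Slc27a5 was at 6.9251, where the others lay between 8.07 and 8.24. Cyp7a1 was at 7.353 on DEN WT replicate 4, also of set 2, where the others lay between 8.99 and 9.45. Nr1h4 was at 7.1913 on DEN WT replicate 5 of set 2, where the others lay between 7.72 and 7.80. Cyp8b1 was at 7.3035 on DEN WT replicate 3 of set 1, where the others lay between 6.47 and 6.63, and at 6.1087 on DEN p53KO replicate 4, where the others lay between 6.39 and 6.50.

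The response of Baat to DEN differed between the genotypes, by 1.1957 in DKO minus WT livers (adjusted p = 0.00615), as a test of the difference itself.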

How the results depend on the processing

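Of 16 member calls, 7 were kept without any 1 array, and these were Abcb11 after DEN in WT livers, Baat and Nr0b2 after DEN in DKO livers, the Baat response difference, Cyp27a1 in DKO and RbKO against WT livers after DEN, and Abcb4 in DKO against RbKO livers. No called difference changed sign under the alternatives run. Without a set term the number of members called was 1 for DEN in WT, 0 for the response difference, 1 for the untreated genotypes, 1 for p53KO, 1 for RbKO and 1 for DKO against WT, and 0 for DKO against RbKO. With the set as a random block it was 1 for DKO against WT and 0 for DKO against RbKO. Within set 1 it was 5 for DEN in WT, 2 for the response difference, 1 for p53KO against WT and 3 for p53KO against RbKO, and within set 2 it was 0 for DEN in WT. Without set 2 it was 5 for DEN in WT, 2 for the response difference, 1 for RbKO against WT, 1 for DKO against p53KO and 1 for p53KO against RbKO. With array weights it was 5 for DEN in WT, 4 for the untreated genotypes, 1 for p53KO against WT and 2 for p53KO against RbKO. With only the groups compared in the fit it was 1 for DKO against WT, 0 for DKO against RbKO and 1 for p53KO against RbKO. With Xist as a covariate, or with arrays centred on the genes tested, it was 1 for DKO against WT. For DEN in DKO, Slc10a1 and Cyp27a1 were added within set 1, without set 2, with array weights and with arrays centred on their own medians. Within set 1 Cyp8b1 was lost for DEN in DKO. The cause of these changes was not tested.

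Without 1 array each, members called ranged over 1 to 5 for DEN in WT, 3 to 5 for DEN in DKO, 1 to 2 for the response difference, 0 to 2 for the untreated genotypes, 1 to 3 for RbKO against WT, 1 to 3 for DKO against WT, 0 to 1 for p53KO against RbKO and 0 to 1 for additivity. Over all fits, the number of all genes called was 142 to 1943 for DEN in WT (636 as reported), 2396 to 4770 for DEN in DKO (3344), 664 to 2391 for the response difference (1580) and 44 to 1575 for the untreated genotypes (177). After DEN it was 35 to 1256 for p53KO (284), 193 to 1993 for RbKO (1811) and 523 to 2284 for DKO against WT (1887). It was 27 to 777 for DKO against p53KO (298), 30 to 280 for DKO against RbKO (164), 23 to 533 for p53KO against RbKO (92) and 1 to 303 for additivity (68). The median of all genes for DEN in DKO shifted by -0.10 with arrays centred on their median and by 0.11 with arrays centred on the genes tested, where Cyp8b1 was not called (adjusted p = 0.0935). Groups of 3 to 5 arrays limit what can be seen. No paired analysis was possible because the labels give no replicate numbers shared by the groups.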
